A study of Saccharomyces cerevisiae S288C with 71 samples.

Results

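Ribosome assembly in budding yeast depends on a large group of nucleolar factors whose gene names begin with UTP, NOP, RRP, NOC or NUG, and the transcripts of 57 of them were followed here in 12 strains at 3 times. The genes were chosen by name alone, as every row of the expression table whose symbol is 1 of these prefixes followed by a number. They were 57 of the 5803 genes in the table, made up of 18 UTP, 18 RRP, 17 NOP and 3 NOC genes and NUG1. All 57 passed the filter on low values, and 53 of them had at least 1 TPM, a transcript's length-corrected share of the library, in every library.

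Ribosomes are built in the nucleolus, where RNA polymerase I makes a long precursor rRNA that is cut, folded and modified while ribosomal proteins join it. The UTP proteins, named for their link to the U3 RNA, form the UTP-A, UTP-B and UTP-C complexes and other parts of the small-subunit processome, which assembles on the precursor with the U3 box C/D small nucleolar RNA. NOP1, NOP56 and NOP58 are the core proteins of the box C/D particles that methylate rRNA, and NOP10 belongs to the box H/ACA particles that make pseudouridine. Many other NOP, NOC, NUG and RRP proteins act on precursors of the large subunit, and several RRP proteins are subunits of the RNA exosome, a nuclease that trims and degrades RNA. In growing yeast these genes are known as a co-regulated group, the ribosome biogenesis regulon, that responds to nutrients through the TOR and Ras/protein kinase A pathways.

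The cultures were Saccharomyces cerevisiae S288C in synthetic medium with ammonium and 2% glucose, sampled at 0 h in log phase and at 12 and 16 h across the diauxic shift, when glucose runs out. The 6 double mutants were coq2d ras2d, coq2d rts1d, coq2d tco89d, cox4d ras2d, cox4d rts1d and cox4d tco89d, where d marks a deletion. The 5 single mutants were ras2d, rts1d and tco89d, which the study describes as suppressors of starvation lethality, and the electron transport chain mutants coq2d and cox4d. The wild type, wt, carries none of these deletions. The product of COQ2 helps to make coenzyme Q, and that of COX4 is part of cytochrome c oxidase. RAS2 is a GTPase upstream of protein kinase A, RTS1 belongs to a protein phosphatase, and TCO89 belongs to TOR complex 1. There were 71 libraries, 2 for each strain and time except cox4d rts1d at 16 h with 1, and the labels call the samplings technical replicates. The p-values below measure that spread alone, which may be technical. In these bulk samples, fewer cells expressing a gene and less RNA per cell cannot be told apart.

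Paired libraries correlated across genes at r of 0.986 to 0.998, and between 0 and 3 of the 57 genes differed by 2-fold or more within a pair. TPM keeps no read count, so depth is unknown. COQ2, RAS2, RTS1 and TCO89 were each at or under 2.95 TPM in the libraries labelled as lacking them. COX4 was similarly low in most, but stood at 72.3 TPM in 1 of the 2 cox4d tco89d libraries of 16 h, at 10.8 TPM in 1 cox4d library of 16 h and at 8.57 TPM in the cox4d rts1d library of 16 h, against 283 to 3463 TPM where the gene was present. Medians over the 57 genes differed within a pair by 1.23-fold or less, except in 3 pairs of 12 h, where 1 library stood apart from its partner with a higher median and more of the deleted gene. In rts1d the library with RTS1 at 1.76 TPM had a median of 12.8 TPM, against 9.06 TPM in its partner (1.42-fold). In coq2d rts1d the library with COQ2 at 2.95 TPM had a median of 10.8 TPM, against 6.55 TPM in its partner (1.65-fold). In coq2d the library with COQ2 at 2.27 TPM had a median of 10.3 TPM, against 7.85 TPM in its partner (1.31-fold). Counts that use these libraries are given below with and without them. CUP1-1, a metallothionein gene, took 1423 to 4326 TPM at 0 h and 17542 to 207862 TPM at 16 h, and such a share lowers the TPM of every other gene. For this reason the median log2 change of all 5766 genes tested stands beside that of the 57, and counts are also given after scaling by median ratios, or with a pseudocount of 5 in place of 1, where these move a count of 3 or more by over 1.5 times. The share of all genes called under the same setting follows each such count in brackets.

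The promoters of the 57 genes carried 2 sequence elements known from this regulon more often than all promoters. PAC contains GATGAG and is known to be bound by the repressors DOT6 and TOD6, and the RRPE element contains AAAAATTTT and is known to be bound by STB3. Windows of 250 bases before to 50 bases after the annotated coding start were read from the RefSeq R64 assembly, which is sacCer3, and both strands were searched. GATGAG was found in 48 of the 57 windows, or 84.2%, against 20.4% of the 6001 windows of all genes. Its longer form GCGATGAG, which contains it, was found in 25 windows, or 43.9%, against 3.93% of all. AAAAATTTT was found in 27 windows, or 47.4%, against 6.98% of all, and 23 windows held both GATGAG and AAAAATTTT. The 104 windows of other ribosome assembly and RNA polymerase I genes were similar, with GATGAG in 90.4% and AAAAATTTT in 69.2%. The 137 cytosolic ribosomal protein genes had GATGAG in 10.9% and AAAAATTTT in 4.38%. The 9 windows without GATGAG belonged to UTP15, UTP22, UTP30, RRP6, RRP7, RRP42, RRP45, RRP46 and NOP53.

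The windows of 5 genes are shown because these genes mark the extremes of what follows. NOP1 and NOP56 had some of the largest decreases after log phase, while NOP16, RRP14 and NOP19 did not decrease in wt. Each is written 5′ to 3′ on the coding strand, so that bases 251 to 253 are the start codon, and capitals mark GATGAG or AAAAATTTT on either strand (CTCATC and AAAATTTTT when read on the other strand). The windows lie at chrIV:427114-427413 on the plus strand for NOP1 (YDL014W) and chrXII:545847-546146 plus for NOP56 (YLR197W). Those of the other genes lie at chrV:156553-156852 plus for NOP16 (YER002W), chrXI:282280-282579 minus for RRP14 (YKL082C) and chrVII:995389-995688 plus for NOP19 (YGR251W).
NOP1: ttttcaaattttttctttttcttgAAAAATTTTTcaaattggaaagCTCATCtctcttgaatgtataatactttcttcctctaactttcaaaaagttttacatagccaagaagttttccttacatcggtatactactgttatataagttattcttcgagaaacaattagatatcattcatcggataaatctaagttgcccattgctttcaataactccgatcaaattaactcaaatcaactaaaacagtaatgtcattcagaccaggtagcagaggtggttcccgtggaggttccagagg
NOP56: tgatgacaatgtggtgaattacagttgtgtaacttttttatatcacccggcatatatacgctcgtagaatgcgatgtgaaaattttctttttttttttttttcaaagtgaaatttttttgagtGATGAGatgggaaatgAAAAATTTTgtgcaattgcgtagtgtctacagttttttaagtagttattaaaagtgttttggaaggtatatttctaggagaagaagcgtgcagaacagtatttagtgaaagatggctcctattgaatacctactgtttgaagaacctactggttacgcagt
NOP16: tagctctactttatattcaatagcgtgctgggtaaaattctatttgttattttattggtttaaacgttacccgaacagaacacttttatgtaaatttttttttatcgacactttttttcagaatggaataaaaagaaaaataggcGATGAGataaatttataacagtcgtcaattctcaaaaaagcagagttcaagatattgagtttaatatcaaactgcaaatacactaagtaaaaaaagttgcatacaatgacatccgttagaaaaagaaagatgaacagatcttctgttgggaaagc
RRP14: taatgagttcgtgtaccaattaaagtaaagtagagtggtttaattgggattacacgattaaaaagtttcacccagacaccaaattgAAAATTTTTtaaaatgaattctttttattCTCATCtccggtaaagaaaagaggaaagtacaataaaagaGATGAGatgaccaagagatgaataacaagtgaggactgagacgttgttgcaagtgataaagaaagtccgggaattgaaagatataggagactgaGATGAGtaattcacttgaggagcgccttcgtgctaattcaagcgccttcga
NOP19: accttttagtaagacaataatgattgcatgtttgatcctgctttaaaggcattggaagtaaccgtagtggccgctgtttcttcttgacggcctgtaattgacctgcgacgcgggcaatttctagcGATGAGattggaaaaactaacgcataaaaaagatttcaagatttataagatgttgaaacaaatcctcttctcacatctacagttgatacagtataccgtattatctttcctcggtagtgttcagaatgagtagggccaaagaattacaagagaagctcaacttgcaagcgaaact

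NOP1 and NOP56 held both elements. NOP16 and NOP19 held 1 GATGAG each and no AAAAATTTT, whereas RRP14 held 3 and 1. Of the 3 GATGAG matches in RRP14, 1 spans the start codon and so lies mostly in the coding sequence. Of the 42 genes called lower in wt at 16 h (below), 88.1% had GATGAG and 50% had both elements. Of the 15 not called, 73.3% had GATGAG and 13.3% had both. Among these 15 are genes that were lower by less than 2-fold, such as NOP53, UTP20 and NOP10. These shares are descriptions of short letter matches and say nothing of whether a factor was bound.

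The 57 genes lay on 14 chromosomes, none overlapped another annotated gene and none had a near-identical copy (at least 95% identity over at least 80% of its length). Of these, 6 (10.5%) had a neighbouring gene that also belonged to ribosome assembly or RNA polymerase I, against 5.33% of the 6002 nuclear protein-coding genes. The only neighbours within the 57 were NOC4 (YPR144C) and RRP15 (YPR143W).

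In wt the group fell steeply after log phase. At 16 h against 0 h, 42 of the 57 genes were lower and 0 were higher, where 28.9% of all genes were lower and 17.7% higher. A gene was called at a limma adjusted p under 0.05 and a change of at least 2-fold on the log2(TPM + 1) scale. The median log2 change of the 57 genes was −1.69, against −0.24 for all genes. Most of the change was already there at 12 h, when 40 of the 57 were lower than at 0 h (27.7% of all genes), with a median log2 change of −1.59, against −0.24 for all genes. Between 12 and 16 h, limma called 0 of the 57 genes either way (0.225% of all genes higher, 0.156% lower). At adjusted p alone 12 were lower, where 5.84% of all genes were, and 22 at an unadjusted p under 0.05.

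The box C/D core proteins fell most. NOP1, the fibrillarin of yeast that transfers methyl groups to rRNA, had 369 and 392 TPM at 0 h, 12.2 and 12.8 TPM at 12 h and 8.55 and 12.2 TPM at 16 h in wt. Its log2 change at 16 h against 0 h was −5.09 ± 0.33 (SE), or 34-fold lower, with an adjusted p of 4.2e-18 (limma). NOP58 had 158 and 146 TPM at 0 h, 11.9 and 13 TPM at 12 h and 9.52 and 8.48 TPM at 16 h, a log2 change of −3.94 ± 0.26. NOP56 had 201 and 156 TPM at 0 h, 22 and 22.6 TPM at 12 h and 11.4 and 13 TPM at 16 h, a log2 change of −3.76 ± 0.28. For all 3 genes the libraries of 0 h lay far above every later library. RRP9, the U3-specific member of this class, changed least in it, by −2.34.

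All 6 UTP-A genes and all 4 UTP-B genes fell, with median log2 changes of −2.66 and −2.58. UTP-A, which also helps transcription of rDNA, ranged from UTP8 at −3.11 ± 0.27 to UTP5 at −1.52 ± 0.13. UTP8 had 29.2 and 21.9 TPM at 0 h, 3.19 and 2.38 TPM at 12 h and 2.67 and 1.53 TPM at 16 h. UTP4 of the same complex had 32.2 and 26.8 TPM at 0 h, 4.58 and 4.88 TPM at 12 h and 4.69 and 3.72 TPM at 16 h. UTP10, its largest protein, had 15.7 and 11.6 TPM at 0 h, 3.69 and 3.28 TPM at 12 h and 2.61 and 2.98 TPM at 16 h. The later libraries of all 3 genes lay below those of 0 h, without overlap. UTP-B ranged from UTP13 at −2.78 ± 0.17 to UTP18 at −1.69. In UTP-C, UTP22 fell by 2.28 ± 0.19 on the log2 scale while RRP7, its partner, was at −0.80 and did not reach 2-fold. UTP22 had 25.2 and 18.8 TPM at 0 h, 4.84 and 5.14 TPM at 12 h and 3.91 and 3.47 TPM at 16 h.

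Of the 15 other small-subunit factors, 12 fell, with a median log2 change of −1.46 over the class. The largest decrease was that of UTP14, an activator of the helicase that removes U3, at −2.67 ± 0.17. RRP5, a long RNA-binding protein needed for both subunits, had 20.8 and 16.6 TPM at 0 h, 4.46 and 3.8 TPM at 12 h and 2.92 and 2.94 TPM at 16 h. UTP20 at −0.92 and UTP7 at −0.72 stayed within 2-fold. NOP19 was at 0.40 ± 0.12 with an adjusted p of 0.0037 (limma), above 0 h but within 2-fold.

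Of the 17 large-subunit factors, 12 fell, with a median log2 change of −1.58. NOC2, which travels with early precursors, fell most, by 2.77 ± 0.20. It had 43.9 and 33.7 TPM at 0 h, 8.87 and 8.28 TPM at 12 h and 5.05 and 4.56 TPM at 16 h. The GTPase gene NUG1 had 81 and 73.3 TPM at 0 h, 36 and 38.9 TPM at 12 h and 25.9 and 25.7 TPM at 16 h, a log2 change of −1.54. NOP16, RRP14 and RRP15 were near their log-phase level, at −0.02 ± 0.11, −0.11 and 0.10, and NOP53 at −0.96 and RRP17 at −0.87 did not reach 2-fold. RRP12, an export factor that serves both subunits, fell by 2.51.

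Of the 7 exosome subunits 2 fell, and the median log2 change of the class was −0.77. RRP42, a ring subunit, fell most, by 1.82, and RRP40, a cap subunit, was at −0.20 with an adjusted p of 0.066 (limma). The nuclear nuclease RRP6 had 33.4 and 30.4 TPM at 0 h, 21.3 and 22.9 TPM at 12 h and 17.7 and 17.2 TPM at 16 h, a log2 change of −0.83 that did not reach 2-fold. RRP4 at −0.43, RRP43 at −0.54 and RRP46 at −0.77 were also short of it. NOP10, the small box H/ACA protein, was the most abundant transcript of the 57 per length, with a mean of 673 TPM over all libraries. It had 917 and 925 TPM at 0 h, 581 and 498 TPM at 12 h and 474 and 517 TPM at 16 h, a log2 change of −0.89.

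**Figure D1:**
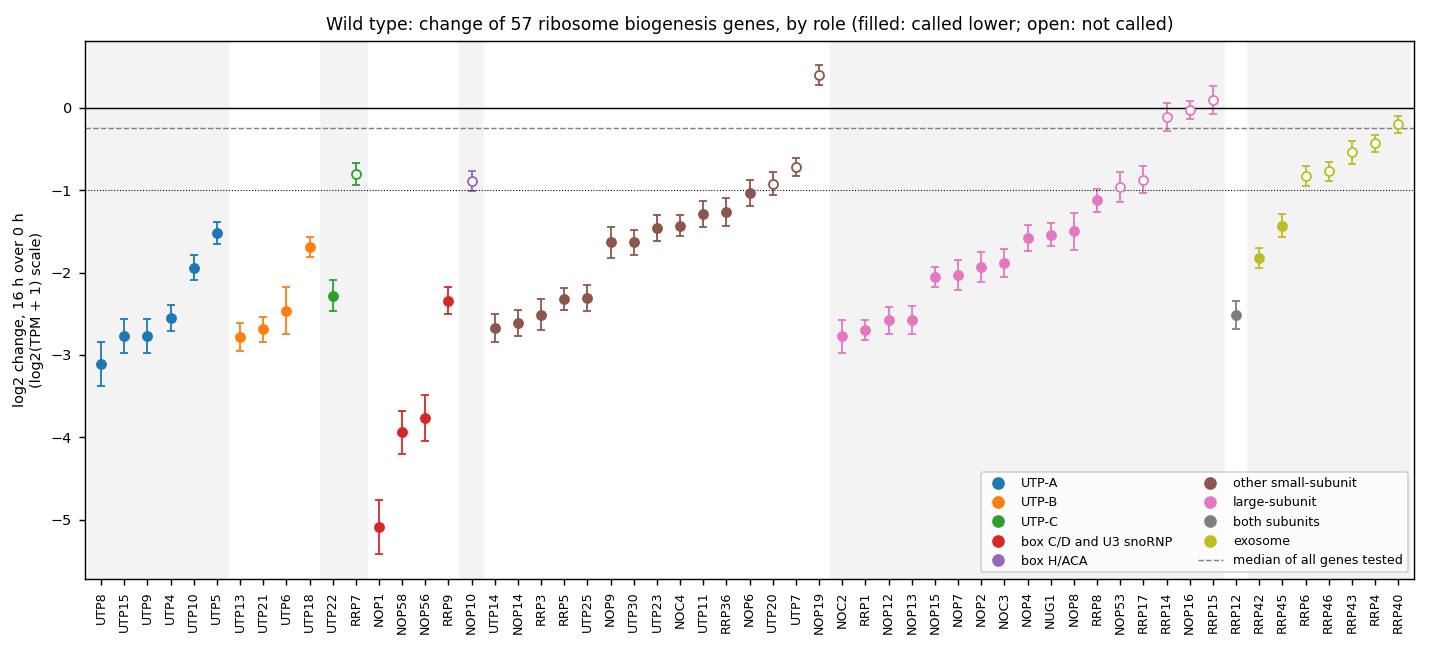
Log2 change of each of the 57 genes in wt at 16 h against 0 h, on the log2(TPM + 1) scale, with SE bars from limma and genes grouped by role. Filled points are the 42 genes called lower and open points the 15 not called; the dotted line marks 2-fold and the dashed line the median of all genes at −0.24. NOP1 lies lowest at −5.09, and NOP16, RRP15 and RRP14 lie nearest to 0, at −0.02, 0.10 and −0.11.

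Genes of the same pathway outside these names gave similar counts in wt at 16 h against 0 h. Of other small-subunit factors 29 of 37 fell, with a median log2 change of −1.50, and of other large-subunit factors 39 of 49 fell, with a median of −1.92. The box H/ACA partners CBF5, NHP2 and GAR1 all fell, with a median of −3.09, as did 6 of 8 RNA polymerase I genes, with a median of −3.02. Other exosome genes and cofactors fell in 4 of 7 cases. Of the cytosolic ribosomal protein genes 131 of 137 fell, with a median of −2.57.

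In 10 of the 11 mutant strains the share of the 57 genes that fell by 12 h was above that of all genes, as in wt, and cox4d ras2d was the exception. At 12 h against 0 h the number of genes that fell was 44 in coq2d (35.2% of all genes), 46 in cox4d (30.7%), 43 in ras2d (23.6%), 46 in rts1d (28.3%) and 41 in tco89d (20.8%). Leaving out the 12 h library that stood apart gave 44 in coq2d and 47 in rts1d. In the double mutants it was 45 in coq2d ras2d (23%), 47 in coq2d rts1d (27.9%), 28 in coq2d tco89d (17%), 47 in cox4d rts1d (31.3%) and 52 in cox4d tco89d (33.3%). The count in coq2d rts1d without its library that stood apart was 50. In cox4d ras2d 9 genes fell, or 15.8% of the 57, against 18.1% of all genes, and at adjusted p alone 44 were lower (52.8%). With median-ratio scaling the counts were 30 in rts1d (15.1%), 29 in coq2d ras2d (10.5%) and 2 in cox4d ras2d (9.02%). In cox4d ras2d it was 4 with a pseudocount of 5 (13.3%).

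At 16 h against 0 h the number of genes that fell was 52 in coq2d (38.8% of all genes), 52 in cox4d (36.5%) and 53 in cox4d tco89d (45.5%). It was 41 in tco89d (23.2%) and 41 in coq2d tco89d (26.7%). It was 20 in ras2d (18.6%), 25 in rts1d (20%), 26 in coq2d ras2d (23.3%) and 25 in cox4d ras2d (31.4%). It was 37 in coq2d rts1d (30.1%) and 34 in cox4d rts1d (28.9%). The median log2 change of the 57 genes was −2.51 in coq2d and −2.57 in cox4d, against −0.62 and −0.50 for all genes, while it was −0.88 in ras2d and −0.81 in rts1d, against −0.26 and −0.03 for all genes. Median-ratio scaling gave 8 genes lower in ras2d (14% of the 57, against 12.7% of all genes), 10 in coq2d ras2d (17.5% against 14.5%) and 14 in cox4d ras2d (24.6% against 21.1%), shares near those of all genes. A pseudocount of 5 gave 9 in ras2d (14.1%), 16 in rts1d (16.6%), 14 in coq2d ras2d (18.1%) and 12 in cox4d ras2d (24.8%). A few genes went the other way. NOP16 rose by 16 h in coq2d (14.8% of all genes higher), coq2d rts1d (18.6%), cox4d rts1d (20.4%) and, with RRP14, in cox4d ras2d (14.3%). In coq2d rts1d 2 genes rose without its second 0 h library.

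Medians over the 57 genes by library differed between strains at 16 h. In ras2d they were 31.6 and 33.3 TPM at 0 h, 12.5 and 11.3 TPM at 12 h and 17.6 and 21.6 TPM at 16 h. In rts1d they were 31.4 and 29.2 TPM at 0 h, 9.06 and 12.8 TPM at 12 h and 17.3 and 17 TPM at 16 h. In both strains the libraries of 16 h lay above those of 12 h, without overlap. In coq2d they were 37.9 and 38.7 TPM at 0 h, 10.3 and 7.85 TPM at 12 h and 7.95 and 6.85 TPM at 16 h. In wt they were 42.5 and 36.3 TPM at 0 h, 13.5 and 14.1 TPM at 12 h and 11.4 and 11.5 TPM at 16 h. In wt the libraries of 16 h lay below those of 12 h, and in coq2d the times overlapped.

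**Figure D2:**
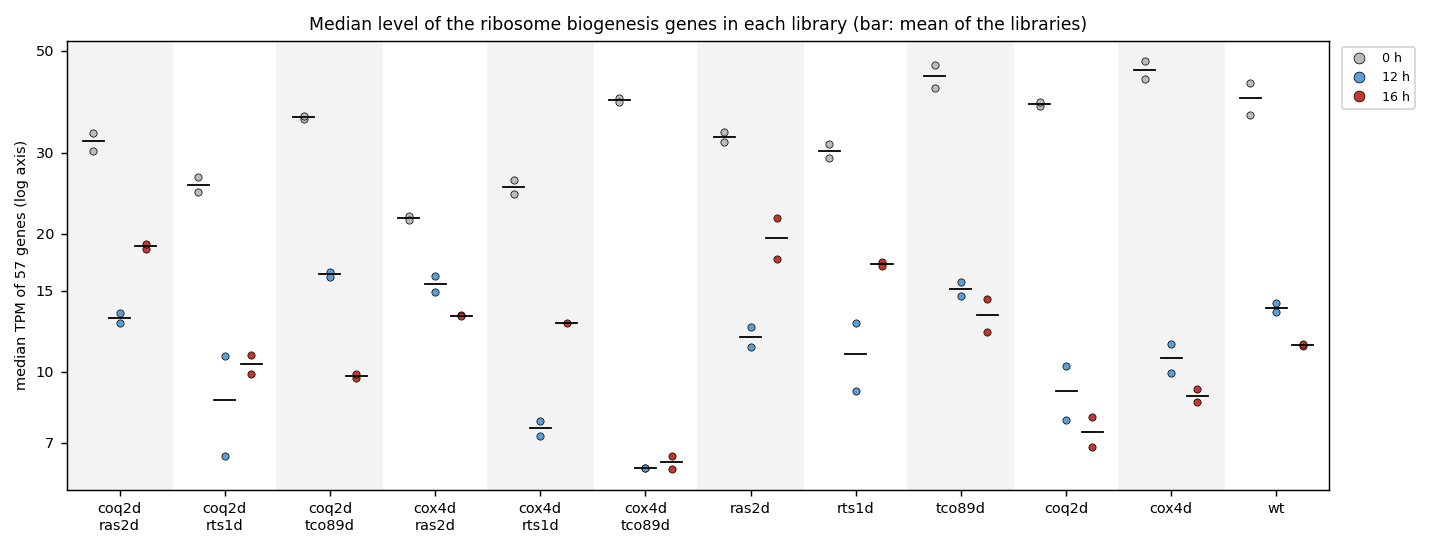
Median TPM over the 57 genes in each library, on a log axis, by strain and time, with a bar at the mean of each group. Libraries of 16 h lie above those of 12 h in ras2d (17.6 and 21.6 against 12.5 and 11.3 TPM) and below them in wt (11.4 and 11.5 against 13.5 and 14.1 TPM).

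The interval from 12 to 16 h was tested directly. The number of genes that rose was 17 in rts1d (14.5% of all genes), 11 in cox4d rts1d (18.5%), 8 in coq2d rts1d (13.3%), 6 in ras2d (3.94%), 4 in coq2d ras2d (5.79%), 3 in cox4d ras2d (10.8%) and 2 in cox4d tco89d (4.13%). As shares of the 57, these were 29.8% in rts1d and 10.5% in ras2d. The others lay close to or below the share of all genes. They were 19.3% in cox4d rts1d, 14% in coq2d rts1d, 7.02% in coq2d ras2d, 5.26% in cox4d ras2d and 3.51% in cox4d tco89d. The count in rts1d was 25 without the 12 h library that stood apart, 9 without its partner and 5 with median-ratio scaling (4.99%), which also gave 3 in ras2d (2.62%), 4 in coq2d rts1d (10.2%), 7 in cox4d tco89d (8.78%) and 5 in cox4d ras2d (11.8%). A pseudocount of 5 gave 9 in rts1d (10%), 2 in ras2d (2.71%), 2 in coq2d ras2d (4.14%), 3 in coq2d rts1d (9.87%) and 1 in cox4d tco89d (3.21%). The count in coq2d rts1d was 10 without the library that stood apart and 3 without its partner, and that in cox4d tco89d was 1 without its second 12 h library and 4 without its first of 16 h. The count in ras2d was 12 without its first 12 h library, 3 without its second, 14 without its first 16 h library and 2 without its second, and 45 of the 57 were higher at adjusted p alone, where 28% of all genes were. Genes that fell in this interval numbered 8 in coq2d tco89d (3.87% of all genes), 5 in cox4d ras2d (12.3%), 3 in coq2d (2.06%) and 1 in cox4d, UTP30 (3.24%). RRP14 alone rose in coq2d (1.91% of all genes) and in cox4d (1.73%). Without the second 12 h or the first 16 h library 0 genes rose in coq2d, and without the first 16 h library 2 rose in cox4d. The count in coq2d was 3 without its 12 h library that stood apart and 7 without its partner or without the first 16 h library. In cox4d it was 2 without the second 12 h or the first 16 h library, and in cox4d ras2d 3 without the second 12 h library and 2 without the first 16 h library. Median-ratio scaling gave 5 in coq2d tco89d (2.31%) and 2 in cox4d ras2d (11.4%), and a pseudocount of 5 gave 1 in coq2d tco89d (1.68%), 1 in coq2d (1.09%), 0 in cox4d (1.51%) and 0 in cox4d ras2d (7.54%).

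**Figure D3:**
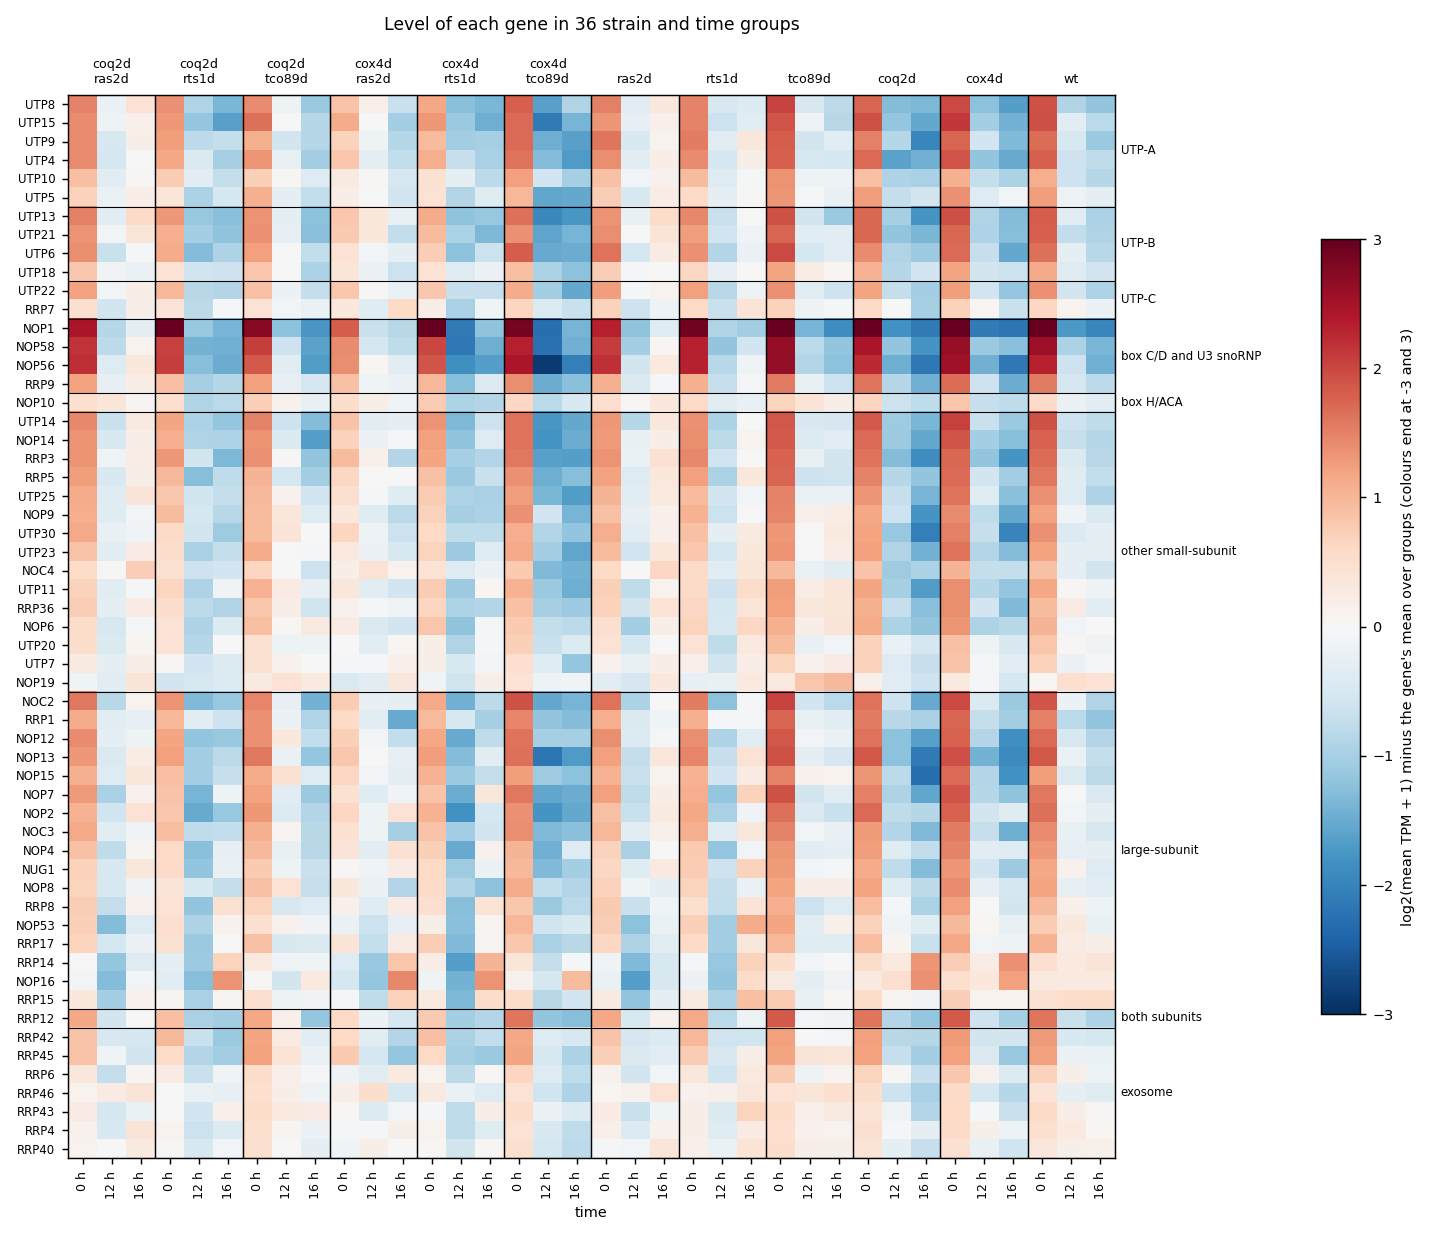
Each row is 1 of the 57 genes, ordered by role, and each column 1 of the 36 groups of strain and time; colour is log2(mean TPM + 1) minus the gene's own mean over groups, with the scale ending at −3 and 3. Columns of 0 h are high for nearly every gene, and NOP16, RRP14, RRP15 and NOP19 stand out as rows with another pattern.

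The electron transport chain mutants were compared with wt at each time. At 0 h, limma called 0 of the 57 genes in coq2d (0.121% of all genes higher, 0.156% lower) or in cox4d (0.26% higher, 0.572% lower). At an unadjusted p under 0.05 there were 0 in coq2d and 4, all higher, in cox4d. At 12 h, NOP13 and UTP11 were lower in coq2d (4.37% of all genes) and NOP13 in cox4d (2.43%). The count in coq2d was 10 without the 12 h library that stood apart (7.23% of all genes), 0 without its partner and 0 with median-ratio scaling (1.53%), and that in cox4d was 2 without the first cox4d or the first wt library. With a pseudocount of 5 it was 0 in coq2d (2.27%) and 0 in cox4d (1.77%). At 16 h, 10 genes were lower in coq2d (12.3% of all genes) and 7 in cox4d (9.52%). The median log2 difference was −0.65 in coq2d and −0.41 in cox4d, against −0.39 and −0.31 for all genes, and median-ratio scaling left 5 genes lower in coq2d (8.77% of the 57, against 3.26% of all genes) and 1 in cox4d (1.75% against 3.52%). The pseudocount of 5 left 4 in coq2d (7.18%) and 1 in cox4d (5.74%). CUP1-1 held 178655 and 194129 TPM in the coq2d libraries and 191671 and 207862 TPM in the cox4d libraries, against 54677 and 59727 TPM in those of wt. The part of this share in the counts was not tested beyond that scaling. The count in cox4d was 3 without the first wt library of 16 h.

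The largest differences at 16 h were those of UTP30, UTP11, NOP15 and NOP13 in coq2d and of UTP30, NOP13, NOP9 and UTP23 in cox4d, while NOP1 lay within the range of the wt libraries in both. UTP30, a small-subunit factor related to ribosomal protein L1, had 2.66 and 2.48 TPM in coq2d and 2.58 and 2.94 TPM in cox4d, against 11.7 and 11 TPM in wt. Its log2 difference from wt was −1.79 ± 0.15 in coq2d and −1.72 in cox4d. NOP15, which binds the second internal spacer of the precursor, had 9.82 and 10.5 TPM in coq2d and 14.7 and 14 TPM in cox4d, against 30.9 and 29 TPM in wt. Its log2 difference from wt was −1.47 in coq2d and −1.01 in cox4d. NOP13 was lower in both, at −1.41 in coq2d and −1.21 in cox4d, UTP11 in coq2d at −1.55, and NOP9 and UTP23 in cox4d at −1.11 and −1.04. NOP1 had 8.9 and 9.26 TPM in coq2d and 8.89 and 8.85 TPM in cox4d, within the 8.55 and 12.2 TPM of wt. Between coq2d and cox4d at 16 h, limma called 0 of the 57 genes (0.0694% of all genes higher, 0.295% lower). In coq2d 5 were lower at adjusted p alone (5.19% of all genes) and 16 at an unadjusted p under 0.05.

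Tested as a difference of changes from 0 to 16 h, 11 genes had a lower change in coq2d than in wt (12.2% of all genes) and NOP16 a higher one (1.91%), and 12 had a lower change in cox4d than in wt (10.3%). Both comparisons share the wt libraries. Median-ratio scaling gave 5 lower in coq2d (4.06%) and 7 in cox4d (5.29%), and a pseudocount of 5 gave 4 in coq2d (7.46%) and 7 in cox4d (6.61%).

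At 16 h 18 of the 57 genes were higher in ras2d than in wt (7.37% of all genes). Median-ratio scaling gave 18 (7.56%), but a pseudocount of 5 gave 3 (5.08%). The median log2 difference was 0.63, against −0.03 for all genes. NOP56 had 39 and 46.3 TPM in ras2d, against 11.4 and 13 TPM in wt, a log2 difference of 1.72 ± 0.28 and an adjusted p of 1.4e-06 (limma). NOP1 had 33.2 and 33.1 TPM in ras2d, against 8.55 and 12.2 TPM in wt, a log2 difference of 1.6 ± 0.33. UTP13 had 8.12 and 9.92 TPM in ras2d, against 2.16 and 2.92 TPM in wt, a log2 difference of 1.5 ± 0.17, and UTP8 had 7.52 and 8.01 TPM in ras2d, against 2.67 and 1.53 TPM in wt. In all 4 genes every ras2d library lay above both wt libraries. By role, 3 of 4 box C/D genes were higher, 3 of 4 of UTP-B, 2 of 6 of UTP-A, 6 of 15 other small-subunit factors and 2 of 17 large-subunit factors, and 0 of 7 exosome subunits.

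At 0 h limma called 0 of the 57 genes (3.59% of all genes higher, 1.25% lower). In ras2d 29 were lower at adjusted p alone, where 23.1% of all genes were, and 36 at an unadjusted p under 0.05. At 12 h 6 genes were lower in ras2d than in wt, or 10.5% of the 57, against 11.9% of all genes. NOP16 led at −1.94, followed by RRP15 at −1.72, RRP14 at −1.61 and NOP53 at −1.55. The difference of changes from 0 to 16 h was higher in ras2d than in wt for 30 of the 57 genes (10.3% of all genes), for 27 with median-ratio scaling (8.95%) and for 17 with a pseudocount of 5 (7.47%). Its median was 1.03, against 0.06 for all genes. NOP1 led with 2.37 ± 0.46 and an adjusted p of 3.6e-05 (limma), followed by UTP13 at 1.98, UTP8 at 1.93 and NOP58 at 1.88. NOP1 had 230 and 216 TPM in ras2d at 0 h, against 369 and 392 TPM in wt, so both the lower start and the higher end enter this value.

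At 16 h 9 genes were higher in rts1d than in wt (6.56% of all genes), or 2 with a pseudocount of 5 (4.08%), with a median log2 difference of 0.68, against 0.13 for all genes. UTP9 of UTP-A led, with 12.4 and 12.8 TPM in rts1d, against 4.62 and 3.42 TPM in wt, a log2 difference of 1.45. NOP53, which docks the helicase MTR4 on large-subunit precursors, had 41.2 and 43.4 TPM in rts1d, against 17.2 and 15.5 TPM in wt. NOP56 had 31.4 and 31.5 TPM in rts1d, against 11.4 and 13 TPM in wt, and NOP13 differed by 1.14. The libraries of the 2 strains did not overlap for any of these genes. Of the 17 large-subunit factors 6 were higher.

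At 0 h limma called 0 of the 57 genes between rts1d and wt (1.4% of all genes higher, 1.28% lower). In rts1d 25 were lower at adjusted p alone (21.9% of all genes) and 38 at an unadjusted p under 0.05. At 12 h 7 were lower in rts1d, or 12.3% of the 57, against 14.2% of all genes. Median-ratio scaling gave 4 (6.5%). RRP15 led at −1.48, followed by RRP14 at −1.47, NOP16 at −1.46 and NOP53 at −1.39. Without the 12 h library that stood apart 12 were lower (15.6% of all genes). The change from 0 to 16 h was higher in rts1d than in wt for 30 genes (8.69% of all genes), with a median difference of 1.02, against 0.27 for all genes. That count was 15 with median-ratio scaling (3.94%) and 10 with a pseudocount of 5 (5.03%). NOP7, the scaffold of the complex with ERB1 and YTM1, led with 1.62, followed by RRP1 at 1.6, UTP9 at 1.58 and NOP13 at 1.53. NOP7 had 49.2 and 53.4 TPM at 0 h, 6.91 and 13 TPM at 12 h and 40.5 and 36.6 TPM at 16 h in rts1d.

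tco89d gave no call against wt. By limma, 0 of the 57 genes were called at 0 h (0.538% of all genes higher, 1.08% lower), at 12 h (7.08% higher, 4.89% lower) or at 16 h (5.6% higher, 4.41% lower). At 16 h 23 of the 57 were higher in tco89d than in wt at adjusted p alone, where 38.1% of all genes were, and 25 were higher and 5 lower at an unadjusted p under 0.05. Without the first tco89d library of 16 h the count of calls was 1. For the earlier times that p gave 2 higher at 0 h, and 14 higher and 10 lower at 12 h. The change from 0 to 16 h gave 0 genes above wt (5.62% of all genes), 9 at adjusted p alone (25.2%) and 13 at an unadjusted p under 0.05. The medians of the 57 genes at 16 h were 12.2 and 14.4 TPM in tco89d, against 11.4 and 11.5 TPM in wt.

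Of the suppressor deletions tested in coq2d or cox4d, that of RAS2 in coq2d had the highest count of higher genes at 16 h. In coq2d ras2d 37 of the 57 genes were higher than in coq2d (19.1% of all genes) and 2, NOP16 and RRP14, were lower (5.71%). The median log2 difference was 1.30, against 0.30 for all genes, and a pseudocount of 5 gave 23 higher (12.9%). NOP15 had 68.6 and 63.7 TPM in coq2d ras2d, against 9.82 and 10.5 TPM in coq2d. Its log2 difference was 2.59 ± 0.12, or 6.02-fold, with an adjusted p of 1.1e-21 (limma). NOP56 had 43.3 and 43 TPM in coq2d ras2d, against 8.2 and 5.87 TPM in coq2d, 5.56-fold. NOP1 had 37.6 and 33.7 TPM in coq2d ras2d, against 8.9 and 9.26 TPM in coq2d. UTP4 had 8.36 and 7.52 TPM in coq2d ras2d, against 2.39 and 2.16 TPM in coq2d, and UTP13 and NOP13 differed by 2.37 and 2.35. For none of these genes did the strains overlap. NOP16 differed by −1.47 and RRP14 by −1.71. Against ras2d itself, limma called 0 genes in coq2d ras2d at 16 h (0.971% of all genes higher, 1.14% lower), with 4 higher at an unadjusted p under 0.05. The effect of deleting COQ2 at 16 h was higher in the ras2d background than in the otherwise wild-type background for 13 genes (10.1% of all genes), led by NOP15 at 1.70, UTP30 at 1.53 and UTP11 at 1.42, or for 4 genes with median-ratio scaling (3.64%) and 3 with a pseudocount of 5 (6.17%). That count was 7 without the first and 20 without the second ras2d library of 16 h.

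The other 2 deletions in coq2d gave smaller counts at 16 h. In coq2d rts1d 8 genes were higher than in coq2d (10.8% of all genes), led by NOP15 at 1.58, UTP11 at 1.57, NOP7 at 1.42 and RRP8 at 1.41. NOP15 had 29.3 and 35.8 TPM in coq2d rts1d. In coq2d tco89d 8 genes were higher (16.4% of all genes), led by UTP30 at 2.06, NOP15 at 1.90 and NOP6 at 1.44, and RRP14 and NOP16 were lower, at −1.45 and −1.09 (3.21%). UTP30 had 15.5 and 12.5 TPM in coq2d tco89d, against 2.66 and 2.48 TPM in coq2d. Both counts lie close to the share of all genes. With median-ratio scaling the count in coq2d tco89d was 4 (4.56%), and with a pseudocount of 5 it was 4 in coq2d rts1d (7.16%) and 4 in coq2d tco89d (10.7%). At 12 h the counts above coq2d were 9 in coq2d ras2d (13.8% of all genes), 1 in coq2d rts1d, UTP4 (7.01%), and 15 in coq2d tco89d (21.2%). Without the coq2d library of 12 h that stood apart they were 12 in coq2d ras2d (16.3%), 2 in coq2d rts1d (8.69%) and 21 in coq2d tco89d (24.3%). Without its partner the count in coq2d ras2d was 2 and that in coq2d rts1d 0. Median-ratio scaling gave 5 in coq2d ras2d (11.1%) and 3 in coq2d tco89d (6.97%), and a pseudocount of 5 gave 1 in coq2d ras2d (9.49%), 0 in coq2d rts1d (4.61%) and 4 in coq2d tco89d (13.4%). The counts below coq2d at 12 h were 4 in coq2d ras2d (7.96%), 5 in coq2d rts1d (8%) and 1 in coq2d tco89d (2.93%). As shares of the 57 they were 7.02%, 8.77% and 1.75%, close to or under those of all genes. NOP16 was among them in all 3 strains, at −1.82, −1.81 and −1.08. Without the coq2d library that stood apart these counts were 3 in coq2d ras2d (7.72%), 4 in coq2d rts1d (7.93%) and 1 in coq2d tco89d (3.14%). In coq2d rts1d 9 were below coq2d and 0 above it without its own library that stood apart (10.4% and 6.75% of all genes), and 2 below and 3 above without that library's partner. With a pseudocount of 5 there were 2 below coq2d in coq2d ras2d (5.95%) and 3 in coq2d rts1d (5.55%).

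In the cox4d background RAS2 deletion gave the highest count as well. In cox4d ras2d 15 genes were higher than in cox4d at 16 h (10.8% of all genes), or 6 with a pseudocount of 5 (7.6%), and the median log2 difference was 0.71, against 0.11 for all genes. NOP56 led at 1.82, with 24.5 and 30.1 TPM in cox4d ras2d, against 7.56 and 6.45 TPM in cox4d. NOP13 followed at 1.69, NOP15 at 1.55 and UTP30 at 1.34. NOP1 had 23.2 and 24.1 TPM in cox4d ras2d, against 8.89 and 8.85 TPM in cox4d. In these values every cox4d ras2d library lay above both cox4d libraries. In cox4d rts1d, with 1 library at 16 h, 7 genes were higher (11.3% of all genes), led by NOP13 at 1.60 and NOP7 at 1.55, or 4 with median-ratio scaling (8.27%) and 3 with a pseudocount of 5 (7.84%). The count in cox4d rts1d is 12.3% of the 57, close to the share of all genes. In cox4d tco89d 3 genes were lower than in cox4d, or 5.26% of the 57, against 9.16% of all genes. They were UTP5 at −1.44, RRP14 at −1.43 and NOP2 at −1.18. That count was 4 without the cox4d tco89d library with COX4 at 72.3 TPM and 3 without its partner. Median-ratio scaling turned the balance round, to 4 higher (7.2% of all genes) against 2 lower (5.06%). At 12 h 10 genes were higher in cox4d ras2d than in cox4d (8.45% of all genes), led by NOP56 at 1.49 and NOP1 at 1.46, or 3 with a pseudocount of 5 (6.33%), and NOP16 and RRP14 were lower, at −1.47 and −1.35 (7.32%). At 12 h 11 were lower in cox4d rts1d (12.2%), or 4 with median-ratio scaling (4.53%) and 4 with a pseudocount of 5 (7.7%), led by RRP14 at −1.88 and NOP16 at −1.72, and 11 in cox4d tco89d (4.23%), led by NOP56 at −1.45 and NOP2 at −1.21, or 0 with a pseudocount of 5 (1.87%).

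**Figure D4:**
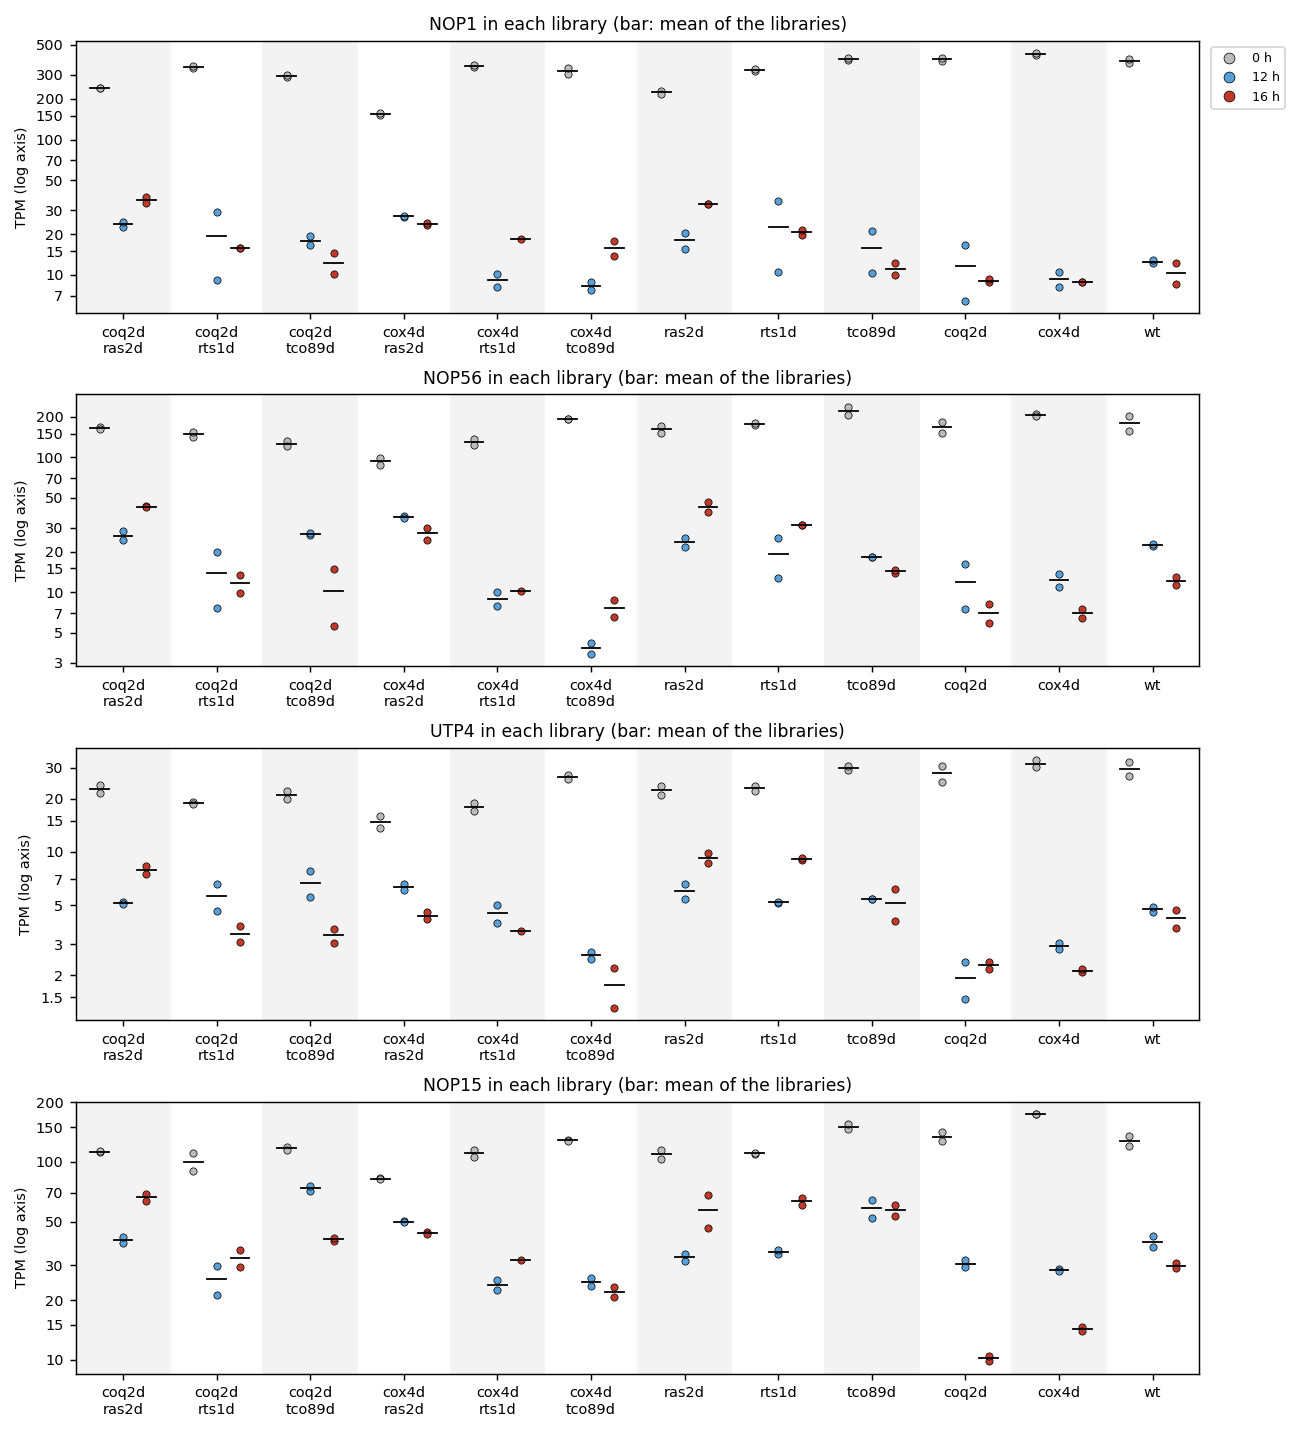
TPM of NOP1, NOP56, UTP4 and NOP15 in every library on a log axis, by strain and time, with a bar at each group mean. At 16 h the coq2d ras2d libraries (NOP15 at 68.6 and 63.7 TPM) lie above those of coq2d (9.82 and 10.5 TPM), and all strains are highest at 0 h.

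The double mutants other than coq2d ras2d were also set against the suppressor single mutants at 16 h. In coq2d rts1d 19 genes were lower than in rts1d (10.5% of all genes), led by NOP56 at −1.37 and UTP30 at −1.35, or 5 with median-ratio scaling (3.36%) and 3 with a pseudocount of 5 (6%). In cox4d rts1d 11 genes were lower than in rts1d (11.5%), or 5 with that scaling (5.36%) and 2 with that pseudocount (6.95%). In cox4d ras2d 6 were lower than in ras2d, or 10.5% of the 57, against 13.7% of all genes, and NOP16 and RRP14 were higher (6.78%), by 1.93 and 1.35. Median-ratio scaling turned this round, to 3 higher (10.9%) against 2 lower (8.52%), and the pseudocount of 5 gave 2 of each (5.67% higher, 8.45% lower). The lower count was 10 without the first ras2d library of 16 h. In coq2d tco89d NOP14 and RRP12 were lower than in tco89d (1.94%), or 1 gene with median-ratio scaling (1.37%) and 0 with the pseudocount of 5 (1.08%). That count was 1 without the first and 6 without the second coq2d tco89d library, and 5 without the first tco89d library. In cox4d tco89d 27 were lower than in tco89d (29.7%), led by UTP11 at −1.85 and UTP23 at −1.77, or 3 with median-ratio scaling (4.87%) and 8 with the pseudocount of 5 (16.9%), and NOP16 was higher by 1.08 (3.71%). The effect of deleting COX4 at 16 h was lower in the tco89d background than in the otherwise wild-type background for 8 genes. These were 14% of the 57, against 14.2% of all genes. Median-ratio scaling gave 1 (5.06%) and the pseudocount of 5 gave 1 (6.61%).

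Changes from 0 to 16 h in the double mutants were set against that in wt. The change was higher than in wt for 29 genes in coq2d ras2d (8.38% of all genes) and for 31 in cox4d ras2d (8.1%), with median differences of 1.00 and 1.12, against −0.07 and −0.11 for all genes. A pseudocount of 5 gave 18 in coq2d ras2d (6.45%). NOP1 led in both, with 2.36 in coq2d ras2d and 2.44 in cox4d ras2d. The change was higher than in wt for 5 genes in coq2d rts1d (5.6%), 7 in cox4d rts1d (7.8%) and, by limma, 0 in coq2d tco89d (3.19%), where 7 were higher at adjusted p alone (15.9%) and 8 at an unadjusted p under 0.05. It was lower than in wt for 7 genes in cox4d tco89d, or 12.3% of the 57, against 19.4% of all genes. That count was 11 without the library with COX4 at 72.3 TPM, 3 without its partner, 4 without the second wt library of 0 h, 0 with median-ratio scaling (5.05%) and 1 with a pseudocount of 5 (11.4%). The count in coq2d rts1d was 2 without its first 0 h library, that in coq2d tco89d was 1 without its first 16 h library or the second wt library of 0 h, and that in cox4d rts1d was 4 without its second 0 h library, 3 and 11 without the first and second wt libraries of 0 h, and 2 with median-ratio scaling (6.61%). A pseudocount of 5 gave 1 in coq2d rts1d (3.87%) and 2 in cox4d rts1d (5.12%). From 0 to 12 h the change was higher than in wt for 28 genes in cox4d ras2d (9.95%) and lower for 20 in cox4d tco89d (11.9%), led by NOP1 at 2.35 in the first and by NOP56 at −2.39 in the second. Median-ratio scaling gave 10 in cox4d tco89d (6.92%), and a pseudocount of 5 gave 18 in cox4d ras2d (7.42%) and 5 in cox4d tco89d (7.54%). All of these comparisons share the wt libraries.

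cox4d ras2d differed already in log phase. At 0 h 34 of the 57 genes were lower in cox4d ras2d than in cox4d (3.99% of all genes), or 18 with a pseudocount of 5 (2.31%), and all 57 were lower at adjusted p alone, where 25.2% of all genes were. The median log2 difference was −1.08, against −0.08 for all genes. NOP1 had 151 and 157 TPM in cox4d ras2d, against 420 and 435 TPM in cox4d, a log2 difference of −1.47 ± 0.33 and an adjusted p of 0.00024 (limma). NOP7 had 32.8 and 32.1 TPM in cox4d ras2d, against 89.5 and 88.1 TPM in cox4d, a difference of −1.42. NUG1 had 37.6 and 31.9 TPM in cox4d ras2d, against 85.9 and 86.7 TPM in cox4d, a difference of −1.29, and UTP23 differed by −1.33. None of these libraries overlapped between the strains. Of the large-subunit factors 15 of 17 were lower, and of the exosome subunits 0 of 7.

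Against ras2d at 0 h, only UTP6 was lower in cox4d ras2d (0.277% of all genes), and 30 genes were lower at adjusted p alone (9.82%). That count of 1 was 4 without the first and 0 without the second cox4d ras2d library of 0 h, and 0 with a pseudocount of 5 (0.191%). The effect of deleting COX4 at 0 h was lower in the ras2d background than in the otherwise wild-type background for 6 genes (0.902% of all genes), or 1 with a pseudocount of 5 (0.694%). That count was 3 without the second cox4d ras2d library and 0 without the second wt library of 0 h. In cox4d rts1d RRP12 and NOP7 were lower than in cox4d at 0 h (1.28%), and 0 genes were with median-ratio scaling (0.78%) or a pseudocount of 5 (0.867%). That count was 4 without the first cox4d or the first cox4d rts1d library of 0 h and 1 without the second cox4d rts1d library. The count of 9 genes that fell in cox4d ras2d by 12 h is taken from this lower start. Its medians over the 57 genes were 21.8 and 21.4 TPM at 0 h, 14.9 and 16.2 TPM at 12 h and 13.3 and 13.2 TPM at 16 h.

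NOP16, RRP14, RRP15 and NOP19 followed other courses than the rest. NOP16, a constituent of large-subunit precursors, had 128 and 133 TPM at 0 h, 123 and 134 TPM at 12 h and 127 and 131 TPM at 16 h in wt, a flat course. In coq2d it had 124 and 133 TPM at 0 h, 158 and 145 TPM at 12 h and 280 and 271 TPM at 16 h. At 16 h it was higher in coq2d than in wt by 1.09 ± 0.11 on the log2 scale, or 2.13-fold, with an adjusted p of 6.8e-11 (limma), where 1.35% of all genes were higher. Without the second coq2d library of 16 h, 2 of the 57 were. In cox4d at 16 h it had 234 and 267 TPM, a log2 difference from wt of 0.95 with an adjusted p of 2.5e-09 (limma), just short of 2-fold. These 4 libraries of 16 h lay above all libraries of the 3 strains at 0 h.

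In the strains lacking RAS2 or RTS1, NOP16 was low at 12 h and then higher. In rts1d it had 88.6 and 99 TPM at 0 h, 44.8 and 47 TPM at 12 h and 149 and 163 TPM at 16 h. In cox4d ras2d it had 68.7 and 75.8 TPM at 0 h, 48.3 and 44.8 TPM at 12 h and 299 and 274 TPM at 16 h, a log2 change of 2.60 between 12 and 16 h. In coq2d ras2d it had 96.3 and 104 TPM at 0 h, 40.6 and 43.5 TPM at 12 h and 103 and 94.8 TPM at 16 h, so its 16 h level was close to that of log phase. The largest changes from 12 to 16 h were 2.77 in cox4d rts1d, with 271 TPM in its single library of 16 h, and 2.62 in coq2d rts1d. In tco89d it had 126 and 130 TPM at 0 h, 84.1 and 90 TPM at 12 h and 93.1 and 101 TPM at 16 h.

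RRP14, a factor with roles in both subunits, was likewise high at 16 h in coq2d and cox4d. It had 117 and 106 TPM in coq2d and 104 and 125 TPM in cox4d, against 56.4 and 58.5 TPM in wt, log2 differences of 0.94 and 0.98 that were short of 2-fold. At 12 h it had 17.6 and 16.3 TPM in ras2d and 14.6 and 24.3 TPM in rts1d, against 51.7 and 56.1 TPM in wt. It rose between 12 and 16 h by 2.68 in cox4d rts1d and by 1.98 in cox4d ras2d. RRP15, which acts in early large-subunit maturation, had 22.7 and 21.4 TPM in ras2d and 25.4 and 27.1 TPM in rts1d at 12 h, against 74.5 and 75 TPM in wt. At 16 h it had 95.1 and 98.7 TPM in rts1d, against 77.5 and 74.6 TPM in wt, a log2 difference of 0.35 that did not pass the test (limma adjusted p = 0.075).

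Tested as a difference of changes from 0 to 12 h, RRP15 and NOP53 were lower than in wt in ras2d, rts1d, tco89d, coq2d ras2d, coq2d rts1d and cox4d rts1d. For RRP15 the difference ran from −1.70 in cox4d rts1d to −1.04 in tco89d, and for NOP53 from −1.62 in coq2d ras2d to −1.01 in cox4d rts1d. Counts over the 57 genes in these comparisons were 3 lower in ras2d (12.8% of all genes), 2 in rts1d (13%), 2 in tco89d (6.59%), 3 in coq2d ras2d (16.1%), 2 in coq2d rts1d (11.1%) and 6 in cox4d rts1d (14.2%), and other genes among them were few. As shares of the 57 these counts ran from 3.51% to 10.5%, below the share of all genes in each of these strains. NOP16 was also lower in ras2d, coq2d ras2d and cox4d rts1d. Without the 12 h library that stood apart the count was 6 in rts1d (13.5%) and 10 in coq2d rts1d (12.9%), and 0 in coq2d rts1d without that library's partner. In tco89d it was 0 without the second 12 h library and 1 without the second tco89d or the second wt library of 0 h, which gave 1 in coq2d rts1d too, as did leaving out its second 0 h library. Median-ratio scaling gave 0 lower in coq2d rts1d (7.49%) and 2 in cox4d rts1d (8.84%), and within 1 gene of these counts in the other 4, and a pseudocount of 5 gave 0 in tco89d (5.13%) and 1 in coq2d rts1d (8.6%). All share the wt libraries.

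NOP19, a small-subunit processome factor, was the only 1 of the 57 genes above its log-phase level in wt at 16 h by adjusted p alone, where 33.1% of all genes were. In wt it had 30.3 and 31.2 TPM at 0 h, 41.3 and 44.8 TPM at 12 h and 40.7 and 40.9 TPM at 16 h. At 16 h it had 19.6 and 18.9 TPM in coq2d and 17.6 and 23 TPM in cox4d, below every wt library, and 64.7 and 55.5 TPM in tco89d, above every wt library. Against wt it was called lower in coq2d, at −1.05, while −0.98 in cox4d and 0.54 in tco89d were short of 2-fold.

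**Figure D5:**
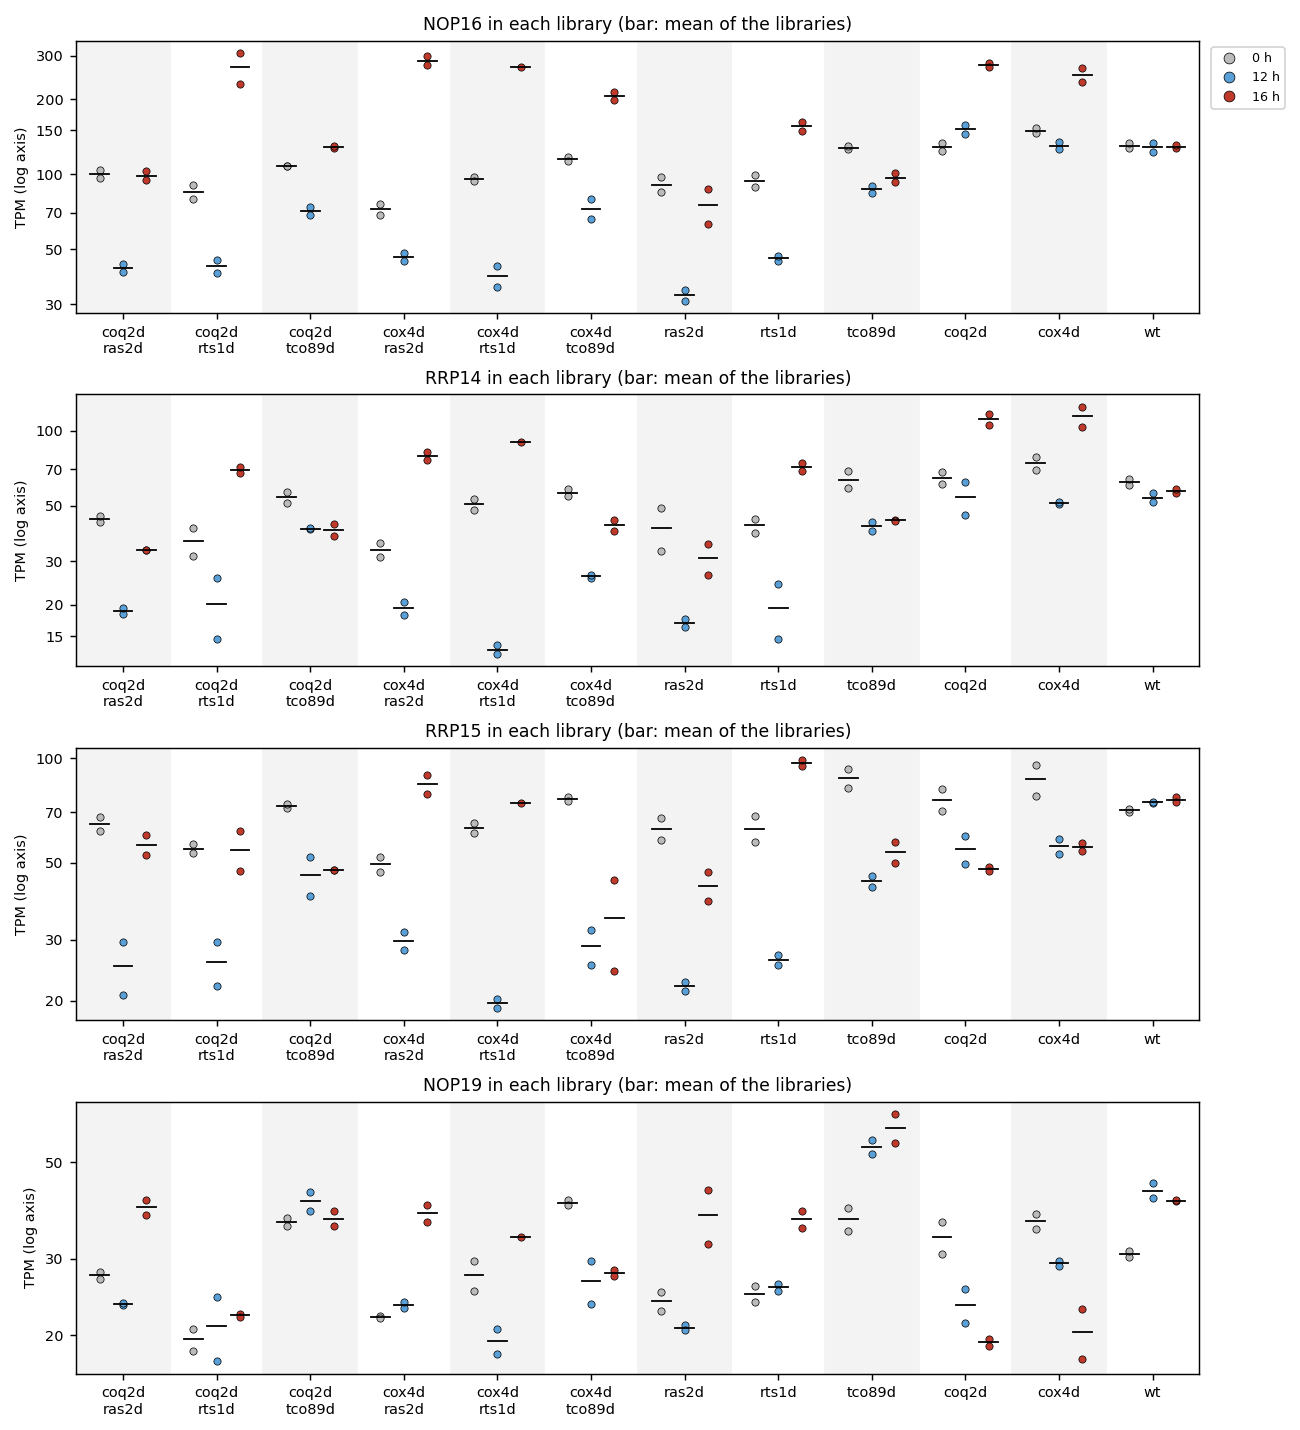
TPM of NOP16, RRP14, RRP15 and NOP19 in every library on a log axis, by strain and time, with a bar at each group mean. NOP16 at 16 h stands at 280 and 271 TPM in coq2d against 127 and 131 TPM in wt, and strains lacking RAS2 or RTS1 dip at 12 h.

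Each gene's group means, as log2(TPM + 1), were correlated with the mean of the other 56 genes, as a description over 36 points that share libraries and scaling. The median r was 0.94, and 42 genes had r of at least 0.9 and 50 of at least 0.8. RRP9 and UTP14 stood highest at 0.99, and 8 genes followed at 0.98, namely NOC2, NOC3, NOP13, NOP14, RRP5, RRP12, UTP6 and UTP25. NOP16 at −0.00, RRP14 at 0.22 and NOP19 at 0.26 were the 3 genes under 0.5, and RRP15 had 0.61, RRP46 0.72 and NOP53 0.77. The spread of group means was widest for NOP1, at 5.54 on the log2 scale, and was 1.55 for RRP46.

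The counts of the 57 genes were set beside those of the 137 cytosolic ribosomal protein genes in the suppressor mutants. At 12 h in ras2d, 0 of the 57 were higher than in wt (5.01% of all genes), with a median log2 difference of −0.13 (−0.14 for all genes), against 44 of 137 ribosomal protein genes with a median of 0.83. At 16 h in ras2d, 18 of 57 were higher than in wt (7.37% of all genes), against 117 of 137. The medians were 0.63 (−0.03 for all genes) and 1.53. In rts1d at 16 h, 9 of 57 were higher than in wt (6.56%), against 14 of 137. Medians there were 0.68 (0.13 for all genes) and 0.57. Between 12 and 16 h in rts1d, 17 of the 57 rose (14.5%), against 0 ribosomal protein genes. Their medians were 0.71 (0.32 for all genes) and 0.16. In coq2d ras2d at 16 h, 37 of 57 were higher than in coq2d (19.1%), against 129 of 137. Here the medians were 1.30 (0.30 for all genes) and 1.91. The change from 0 to 16 h was higher than in wt for 30 of the 57 in ras2d (10.3%) and in rts1d (8.69%). For the ribosomal protein genes it was 126 of 137 in ras2d and 7 of 137 in rts1d. Several counts of the 57 move with the scaling or the pseudocount, as given above. The 17 in rts1d were 5 with median-ratio scaling (4.99%). Fold changes of low genes are also understated on this scale, and the difference between the gene lists was not tested.

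Among 9 regulators of ribosome biogenesis or ribosomal protein genes, DOT6, which encodes a repressor that binds PAC, changed most in wt. It had 77.4 and 85.4 TPM at 0 h, 423 and 456 TPM at 12 h and 589 and 536 TPM at 16 h, a log2 change of 2.77 ± 0.11. CRF1, a corepressor of ribosomal protein genes, rose by 2.53 ± 0.10, while the activator SFP1 was at −0.30, TOD6 at 0.15 and STB3 at 0.45. At 16 h DOT6 had 175 and 176 TPM in ras2d and 157 and 145 TPM in tco89d, against 589 and 536 TPM in wt. Its log2 differences were −1.68 in ras2d and −1.89 in tco89d, with adjusted p of 3e-17 and 8.5e-19 (limma). It had 366 and 352 TPM in rts1d, a difference from wt of −0.65 that did not reach 2-fold. At 16 h 18 of the 57 genes were called above wt in ras2d (7.37% of all genes) and 0 in tco89d (5.6%). In tco89d 23 were higher at adjusted p alone (38.1% of all genes). Whether the level of DOT6 bears on the 57 genes was not tested.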

How the data were processed

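Poly(A) RNA of 71 libraries (12 strains, 3 times) was sequenced with a stranded kit, per the labels' protocols. Build sacCer3 and the tools bcl2fastq 2.20.0.422 and Salmon 0.9.1 are listed in the submitters' processing notes, without their roles. The deposited values are TPM that the authors had scaled to a common total per library, with a floor of 0.1. Depth is therefore unknown, and paired libraries give the only measure of precision. Both deposited tables held the same values, and 1 was used.

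A gene was kept if 2 or more libraries had it at 1 TPM or above, which left 5766 of 5803. One limma model (3.58.1, R 4.3.3) was fitted on log2(TPM + 1), with 1 mean per group, 35 residual degrees of freedom and an intensity trend. The lone cox4d rts1d library of 16 h was assumed to vary like the other groups. P-values were adjusted over all genes within each of 130 comparisons in 7 families (Benjamini-Hochberg). Calls needed an adjusted p under 0.05 and at least 2-fold, and fold changes of low genes are understated on this scale. Changes were simulated for coq2d against wt at 16 h (5766 genes). Calls were made for 0 of 50 genes changed 1.5-fold, 20 of 50 changed 2-fold and 50 of 50 changed 3-fold or 4-fold. The changed genes were drawn only from those above a minimum TPM in wt at 16 h, so the counts give no rate for low genes. In the wt libraries of 16 h the UTP-A genes had medians of 4.38 and 3.57 TPM, and UTP-B 2.84 and 2.82 TPM. A 2-fold change in the TPM of such genes falls short of 2-fold on the log2(TPM + 1) scale.

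Genes named in the text were the largest and smallest change per role and every gene not called in wt at 16 h against 0 h, up to 4 leading genes and every gene against the majority in other comparisons, and 10 genes always shown. The genes, lists and rule were chosen with earlier results of these data known. Motif searches used Python 3.11.15 and near copies blastn 2.17.0. Alternatives were other scaling, another pseudocount, no filter, other call rules and leaving out libraries.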

Additional observations from a re-analysis of the deposited data

Results flagged for a closer look

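The change from log phase differed between a mutant and wt, by the test of the difference itself, in the following numbers of the 57 genes, each followed by the share of all genes called the same way. From 0 to 12 h it was higher than in wt for 28 genes in cox4d ras2d (9.95% of all genes). From 0 to 16 h it was higher for 30 genes in ras2d (10.3%), 30 in rts1d (8.69%), 29 in coq2d ras2d (8.38%), 31 in cox4d ras2d (8.1%), 5 in coq2d rts1d (5.6%), 7 in cox4d rts1d (7.8%) and 1, NOP16, in coq2d (1.91%). The 5 in coq2d rts1d are 8.77% of the 57, close to the share of all genes. From 0 to 16 h it was lower than in wt for 11 genes in coq2d (12.2% of all genes), 12 in cox4d (10.3%) and 7 in cox4d tco89d (19.4%). The 7 in cox4d tco89d are 12.3% of the 57, below the share of all genes, and were 0 with median-ratio scaling. That scaling also gave 15 higher in rts1d (3.94%), 5 lower in coq2d (4.06%) and 7 lower in cox4d (5.29%). A pseudocount of 5 gave 17 higher in ras2d (7.47%), 10 in rts1d (5.03%) and 18 in coq2d ras2d (6.45%). To 12 h it gave 18 in cox4d ras2d (7.42%). Counts in coq2d rts1d and cox4d rts1d moved too, as given above. All these comparisons use the same wt libraries. The counts in cox4d ras2d are taken from a lower start, with medians over the 57 genes of 21.8 and 21.4 TPM at 0 h. Those of wt at 0 h were 42.5 and 36.3 TPM. The other strains lacking RAS2 or RTS1 also had 0 h medians below those of wt. They were 31.6 and 33.3 TPM in ras2d, 31.4 and 29.2 TPM in rts1d and 33.2 and 30.3 TPM in coq2d ras2d. In coq2d rts1d they were 24.6 and 26.5 TPM and in cox4d rts1d 24.4 and 26.2 TPM.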

How the results depend on the processing

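No paired analysis was possible because the columns of the deposited table carry no replicate number. All counts in this section are of the 57 genes, over 57 comparisons, which leave out some of those described above. Removing the low-value filter, fitting only the compared libraries (45 comparisons) or searching only the bases before the start moved no count by over 1.5 times. The cause of each movement below was not tested. With adjusted p alone, without a minimum fold, counts of lower genes were as follows: for 16 h against 12 h, wt 12, coq2d 28, cox4d 30 and tco89d 2; for 16 h against 0 h, ras2d 47, coq2d ras2d 48 and cox4d ras2d 38; for 12 h against 0 h, coq2d tco89d 53 and cox4d ras2d 44. At 0 h cox4d ras2d had 57 lower than cox4d and 30 lower than ras2d. At 16 h, 44 were lower in coq2d and 33 in cox4d than in wt, 14 in cox4d tco89d than in cox4d and 5 in coq2d than in cox4d. Counts of higher genes were 45 in ras2d and 48 in rts1d for 16 h against 12 h, and at 16 h 38 in ras2d, 44 in rts1d and 23 in tco89d against wt. Against the electron transport chain mutant they were 34 in coq2d rts1d, 33 in coq2d tco89d, 44 in cox4d ras2d and 28 in cox4d rts1d at 16 h, and 34 in cox4d ras2d at 12 h. For the change from 0 to 16 h against wt, lower counts were 32 in coq2d, 29 in cox4d and 31 in cox4d tco89d, and higher counts 46 in ras2d, 50 in rts1d, 9 in tco89d, 46 in coq2d ras2d, 19 in coq2d rts1d, 7 in coq2d tco89d and 28 in cox4d rts1d.

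With median-ratio scaling, and with quantile normalization after it, lower counts at 16 h against 0 h were 8 and 11 in ras2d, 10 and 10 in coq2d ras2d and 14 and 10 in cox4d ras2d. At 12 h against 0 h they were 29 and 29 in coq2d ras2d and 2 and 2 in cox4d ras2d, and 30 in rts1d by median ratio. Higher counts at 16 h against 12 h were 3 and 3 in ras2d and 5 and 6 in rts1d. At 16 h lower counts against wt were 5 and 5 in coq2d and 1 and 2 in cox4d, higher counts in coq2d tco89d against coq2d 4 and 3, in cox4d rts1d against cox4d 4 by median ratio, and in rts1d against wt 5 by quantile. For the change from 0 to 16 h against wt they were 5 and 5 lower in coq2d, 7 and 7 lower in cox4d, 15 and 11 higher in rts1d, 2 and 2 higher in cox4d rts1d and 0 and 0 lower in cox4d tco89d.

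With a pseudocount of 5, lower counts for 16 h against 0 h were 9 in ras2d, 16 in rts1d, 14 in coq2d ras2d and 12 in cox4d ras2d, for 12 h against 0 h 4 in cox4d ras2d, and for 16 h against 12 h 1 in coq2d and 0 in cox4d. Higher counts for 16 h against 12 h were 2 in ras2d and 9 in rts1d. At 0 h cox4d ras2d had 18 lower than cox4d and 0 lower than ras2d. At 16 h against wt, 4 were lower in coq2d and 1 in cox4d, and 3 were higher in ras2d and 2 in rts1d. Against the electron transport chain mutant, 23 were higher in coq2d ras2d, 4 in coq2d rts1d, 4 in coq2d tco89d, 6 in cox4d ras2d and 3 in cox4d rts1d at 16 h, and 3 in cox4d ras2d at 12 h. For changes against wt, 18 were higher in cox4d ras2d to 12 h, and to 16 h 4 were lower in coq2d, 7 in cox4d and 1 in cox4d tco89d, and 17 were higher in ras2d, 10 in rts1d, 18 in coq2d ras2d, 1 in coq2d rts1d and 2 in cox4d rts1d.

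Leaving out 1 library at a time moved 22 of 270 counts. The ranges were 9 to 25 higher in rts1d and 2 to 14 higher in ras2d for 16 h against 12 h, 3 to 7 lower in coq2d and 1 to 2 in cox4d for the same interval, 3 to 10 lower in cox4d against wt and 0 to 1 higher in tco89d against wt at 16 h, and 0 to 4 lower in cox4d ras2d against ras2d at 0 h. For the change from 0 to 16 h against wt they were 2 to 5 higher in coq2d rts1d, 0 to 1 in coq2d tco89d, 3 to 11 in cox4d rts1d and 3 to 11 lower in cox4d tco89d. Of 2176 values of named genes, 2088 kept direction and side of the threshold, 78 no longer passed, 4 newly passed and 6 changed sign, all 6 in wt at 16 h against 0 h: NOP16 (0.29 by median ratio and, without single wt libraries, −0.04 to 0.01), RRP40 (0.11 by median ratio) and RRP14 (0.19 by median ratio, 0.02 by quantile).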
